A study of Mus musculus with 6 samples.

Results

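Claudins and tight junction scaffolds were examined in small intestinal organoids, as a list of 9 genes: the claudins Cldn2, Cldn3, Cldn4, Cldn7, Cldn15 and Cldn23, the scaffolds Tjp1 and Tjp3, and occludin (Ocln). They were found by gene symbol, and all 9 have a row among the 21255 identifiers of the deposited table. The study compared 3 libraries of C/EBPα KO organoids (C/EBPα Flox/Flox with the VillinCreERT2 transgene, whose villin promoter drives the recombinase in intestinal epithelium) with 3 libraries of control organoids. Control organoids carry the floxed alleles without the transgene according to the paper, and wildtype according to the labels. Both groups were cultured in Matrigel from crypts and given 4-hydroxytamoxifen (4-OHT), which the labels put at 400 nM over 2 days and the paper at a higher dose. Of the 6 columns of values in the table, 3 carry the numbers of the controls, S1, S2 and S3, in their names. The remaining 3 match the label of no sample. Taking them as C/EBPα KO would rest on elimination, so they were not used, the KO libraries were not analysed here, and whether the genes differ between genotypes was not tested. Everything below describes the 3 control libraries. Nothing in the labels says whether these came from separate mice.

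Tight junctions seal the space between neighbouring epithelial cells near their apical surface. Claudins are membrane proteins whose extracellular loops meet those of the next cell, and each member sets which ions can pass. Some form channels, as claudin-2 and claudin-15 do for small cations in the intestine, and others mainly seal. Occludin is a further membrane protein of the strand. The scaffolds ZO-1 (Tjp1) and ZO-3 (Tjp3) bind claudin tails beneath the membrane and tie them to actin.

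The reads recovered on genes came to 36819530 for S1, 32898280 for S2 and 30405545 for S3. Cebpa, the gene targeted in the KO, had 6446, 5829 and 6016 normalized counts. Of the 8 epithelial markers (Epcam, Cdh1, Vil1, Krt8, Krt18, Krt19, Krt20 and Cdx2), all 8 were above the filter of 10 normalized counts described below, with summed levels from 222379 to 248060. Markers of other tissues were low. The 5 mesenchymal markers with a row summed to between 127 and 193 normalized counts, nearly all of it Vim, with Col1a2 and Acta2 at 0 reads. The endothelial markers Pecam1 and Tek summed to at most 29.3, and of the leukocyte markers Itgam alone passed the filter, at 214 ± 17.9 (SD, n = 3), with Ptprc at 0.946 on average. Xist, which female cells express from 1 X chromosome, stood at 18.9 normalized counts for S1, against 15423 for S2 and 14769 for S3.

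The channel-forming claudins were both well expressed. Cldn15 (ENSMUSG00000001739), at chr5:136966616-136975858 on the plus strand of GRCm38, had 18319, 18333 and 17630 normalized counts in libraries S1, S2 and S3. S1 and S2 were almost level and S3 was slightly lower. Cldn2 (ENSMUSG00000047230), at chrX:139800828-139811386 on the plus strand, had 7677, 8252 and 8691. This is the one member on the X chromosome. It was lowest in S1, the library with very few reads of Xist, and the part of sex in this was not tested. Members on autosomes with their lowest value in S1 are given below.

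Among the claudins regarded mainly as sealing, Cldn3 and Cldn7 were even across the libraries and Cldn4 was not. Cldn3 (ENSMUSG00000070473), at chr5:134986214-134987472 on the plus strand, had 11194, 11644 and 11231 normalized counts in S1, S2 and S3. Cldn7 (ENSMUSG00000018569), at chr11:69964779-69967885 on the plus strand, had 15847, 15431 and 15562. Cldn4 (ENSMUSG00000047501), at chr5:134945119-134946934 on the minus strand, had 1562, 2330 and 3183. Its level in S3 was 2.04 times that in S1, and S2 lay between them. Cldn23 (ENSMUSG00000055976), a less studied claudin at chr8:35824712-35826559 on the minus strand, had 656, 693 and 710 normalized counts.

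The scaffolds and occludin did not share 1 order of libraries. Tjp1 (ENSMUSG00000030516), at chr7:65296165-65527781 on the minus strand, had 4939, 5462 and 5802 normalized counts. Tjp3 (ENSMUSG00000034917), at chr10:81273207-81291581 on the minus strand, was highest in S1 and lowest in S2, with 8596, 8011 and 8176. Ocln (ENSMUSG00000021638), at chr13:100496507-100552718 on the minus strand, had 4402, 4682 and 4916. S1 was thus lowest for Tjp1 and Ocln and highest for Tjp3. In the annotation, genes on the other strand overlap Cldn3 (Wbscr25), Tjp3 (Apba3) and Tjp1 (Gm44795), and Gm44794 and Gm44792 overlap Tjp1 on its own strand. The library kit keeps strand, but the sources used here do not give the strand setting of the quantification.

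**Figure D1:**
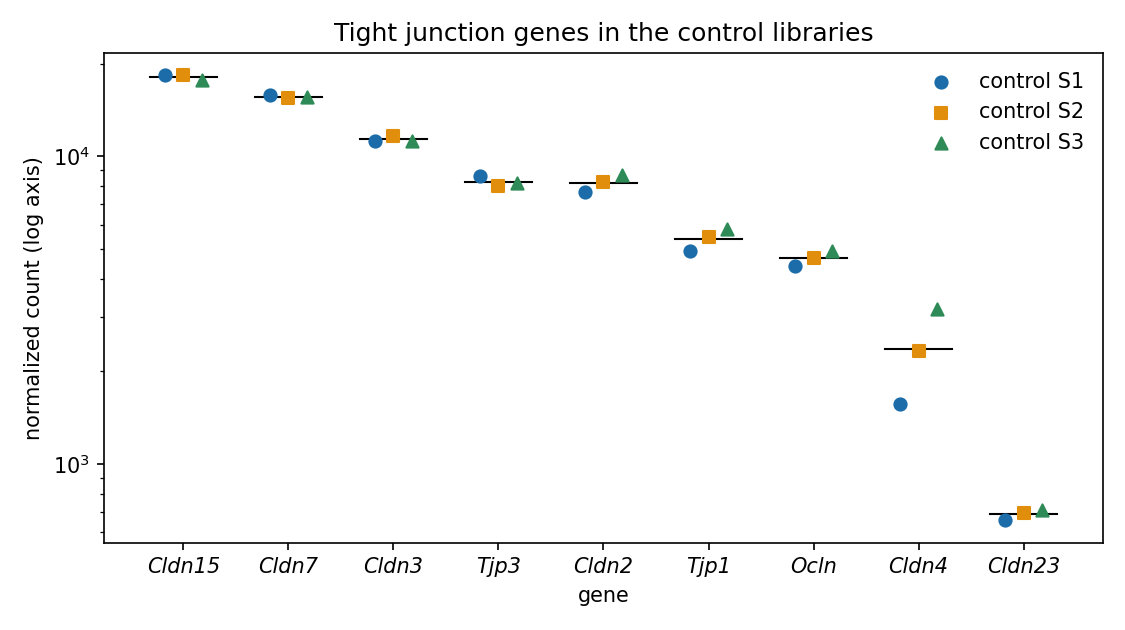
Normalized counts (log axis) of the 9 genes in control libraries S1 (circles), S2 (squares) and S3 (triangles), with a line at the mean of the 3 libraries. Cldn4 is the member whose libraries lie far apart, from 1562 to 3183. Values are not corrected for transcript length, so the order of genes is one of reads.

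To compare genes with each other, recovered reads were divided by the merged exon length of each gene and scaled to TPM (transcript numbers on a common total per library). On this scale, Cldn3 stood at 707 ± 7.73 TPM (SD, n = 3), Cldn15 at 667 ± 8.88 and Cldn7 at 628 ± 15.2. These 3 claudins formed an upper tier. Their ranges over the libraries did not overlap, but their order rests on the length used: with the longest transcript of each gene in place of merged exons, Cldn7 came first at 732 TPM, followed by Cldn15 at 595 and Cldn3 at 565. Cldn2 followed at 193 ± 13.4 TPM and Tjp3 at 174 ± 7.74. This pair overlapped between libraries, with Cldn2 above Tjp3 in 2 of 3 libraries, and with the longest transcripts the means changed places, at 169 TPM for Cldn2 and 171 for Tjp3. Cldn4 stood at 102 ± 36.0 TPM and Ocln at 86.6 ± 5.44, and these also overlapped, with Cldn4 above Ocln in 2 of 3 libraries. Tjp1 was lower at 54.2 ± 4.70 TPM and Cldn23 the lowest of the 9 at 29.1 ± 1.35. All of these levels belong to whole organoids, in which fewer cells of a type and less RNA per cell cannot be told apart.

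The 6 claudins of the list made up nearly all of the claudin level that was summed. Numbered claudins were taken from the gene lists used here, and the whole table was not searched for others. Of those listed, 18 have a row, and 8 of these reached a mean of 10 normalized counts. Claudins without a row or outside the lists are not in the sum. Per exon length, the 6 listed claudins held 98.2%, 98.4% and 98.3% of the summed claudin level in S1, S2 and S3. Cldn3 held 29.9% ± 0.56 (SD, n = 3), Cldn15 28.2% ± 0.90, Cldn7 26.5% ± 0.73 and the channel-former Cldn2 8.17% ± 0.40. The share of Cldn4 was 2.89% in S1, 4.22% in S2 and 5.75% in S3. Cldn12, which is not in the list, held 1.65% ± 0.12, above the 1.23% ± 0.03 of Cldn23. Cldn8, a sealing claudin known from the kidney and colon, had 25.5 ± 8.02 normalized counts, and Cldn18, known from stomach and lung, had 2, 5 and 18 reads in the same order. Cldn1 had at most 3 reads in any library, which is the number that a count of 0 allows, and Cldn20 had 0 reads in each.

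**Figure D2:**
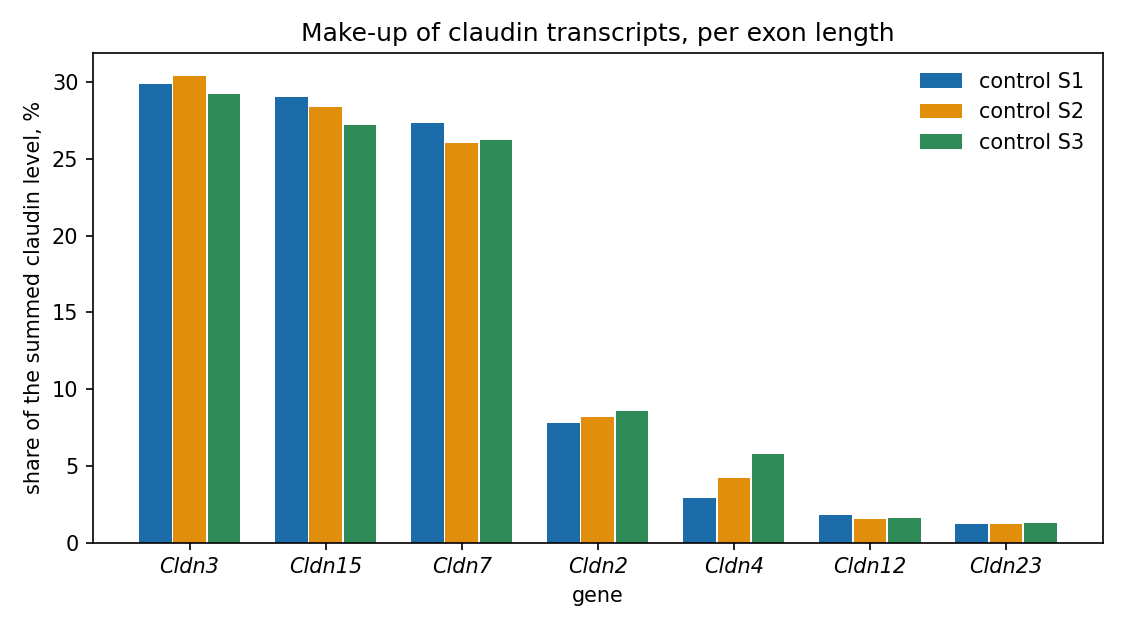
Share (%, per exon length) held by the 7 most abundant claudins in the summed level of the listed claudins with a row, in control libraries S1, S2 and S3. Bars start at 0. Cldn3, Cldn15 and Cldn7 hold most of the total in every library, and Cldn4 moves from 2.89% to 5.75%.

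The spread of the 9 genes between the libraries was then set beside that of all 13803 genes passing the filter, which asked for 10 normalized counts or more on average. The coefficient of variation (CV, the SD in percent of the mean) had a median of 4.06% over the 9 genes and 6.62% over all genes tested. This does not make the 9 steadier than most, because genes with few reads have higher CVs and 8 of the 9 are highly expressed. Among genes of their own level (in classes such as 3162 to 5623 normalized counts on average), 5 of the 9 had a CV above the class median and 4 did not. Cldn7 had a CV of 1.36%, above 4.27% of genes tested. It was the lowest of the 9 here, but with libraries scaled to the same total Cldn3 and Cldn7 were level at 1.80%, and Cldn3 was lowest without S2 (0.23%) and Cldn15 without S3 (0.055%). Cldn15 had a CV of 2.22%, and Cldn3 lay just below it, above 10.7% of genes tested. All 3 lay under the medians of their level, 3.54% for Cldn15 and 3.66% for Cldn3 and Cldn7. Tjp3 had a CV of 3.65% and Cldn2 6.20%, against a median of 3.50% at their level. Ocln had 5.52% and Tjp1 8.05%, against 3.69% at theirs, and Tjp1 lay above 89.7% of the genes of its level. Cldn23 had a CV of 4.06%, under the 6.05% of its level and close to the 3.92% that counting error alone gives at its level.

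Cldn4 stood apart from the other members with a CV of 34.4%, above 92.8% of all genes tested. Counting error alone gives 2.12% at its level, and the median of the 1696 genes whose mean lies between 1778 and 3162 normalized counts was 4.16%, with a 90th percentile of 8.48%. On the log2(normalized count + 1) scale, the range over the 3 libraries was 1.03 for Cldn4 against a median of 0.11 for the 9 genes and 0.18 for all genes tested. Without S1 the range of Cldn4 was 0.45, and without S3 it was 0.58.

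**Figure D3:**
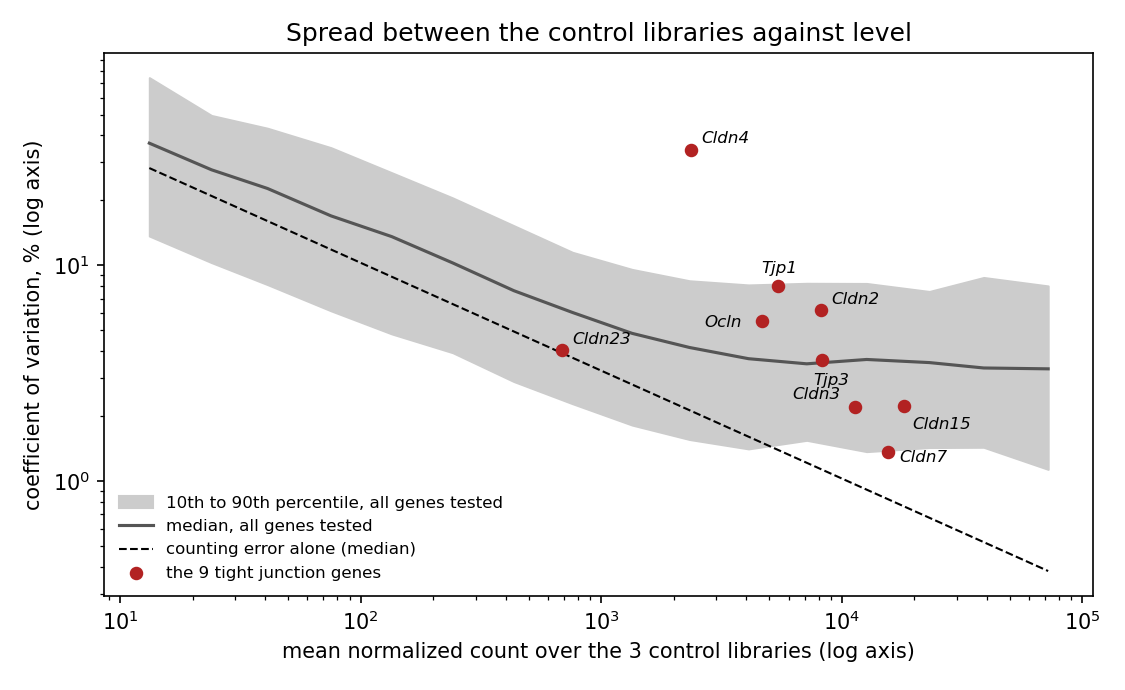
Coefficient of variation over the 3 control libraries (%, log axis) against mean normalized count (log axis). The grey band holds the 10th to 90th percentile of all genes tested at each level, the solid line their median and the dashed line counting error alone; of the 9 genes (red points), Cldn4 lies far above the band at 34.4% and the others lie within or at its edge.

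To ask which differences exceed counting error, each gene's reads were compared between pairs of libraries by a chi-square test with Benjamini-Hochberg adjustment over all 13803 genes. Such a test compares libraries of 1 group and says nothing of a condition. Between S1 and S2, 6 of the 9 genes were called at an adjusted p under 0.05, against 29.1% of all genes tested. Between S1 and S3 it was again 6 of 9, against 29.7%, and between S2 and S3 it was 4 of 9, against 16.8%. Of the 9 genes, 8 have more reads than most (they lie above 76.6% to 98.2% of genes tested, and Cldn23 above 46.5%), and the share called rises with level. Among genes of the same level as each member, the share called between S1 and S2 ran from 25.4% at the level of Cldn23 to 73.5% at that of Cldn15, with a mean of 50.6% over the 9 members. Between S1 and S3 these shares had a mean of 52.9%, and between S2 and S3 of 33.8%. Whether the members' counts exceed these shares was not tested.

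Cldn4 was called in each pair. It was higher in S2 than in S1 by 0.58 on the log2 scale (adjusted p = 5.6e-33), higher in S3 than in S1 by 1.03 (adjusted p = 3.3e-118) and higher in S3 than in S2 by 0.45 (adjusted p = 1.0e-25). The other calls were of 0.23 or less in log2. Tjp1 and Cldn2 were also called in each pair, always in the same order of libraries. Between S1 and S3, the log2 difference was 0.23 for Tjp1 (adjusted p = 1.3e-14) and 0.18 for Cldn2 (adjusted p = 3.0e-13). Ocln was higher in S3 than in S1 by 0.16 (adjusted p = 2.7e-06) and higher in S2 than in S1 by 0.09 (adjusted p = 0.015). Tjp3 fell by 0.07 from S1 to S3 (adjusted p = 0.0082), with a log2 difference of -0.10 from S1 to S2 (adjusted p = 6.7e-05). Cldn15 fell by 0.06 from S1 to S3 (adjusted p = 0.0026), with a log2 difference of -0.06 from S2 to S3 (adjusted p = 0.0051). With the values as deposited, Cldn3 was called between S1 and S2 alone, where it was higher in S2 by 0.06 (adjusted p = 0.014). Between S2 and S3 its log2 difference was -0.05, just short of the threshold (adjusted p = 0.055). Cldn7 and Cldn23 were called in no pair, with adjusted p-values in this test from 0.062 to 0.83. The lowest unadjusted p was 0.019 for Cldn7, between S1 and S2, and 0.15 for Cldn23, between S1 and S3.

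**Figure D4:**
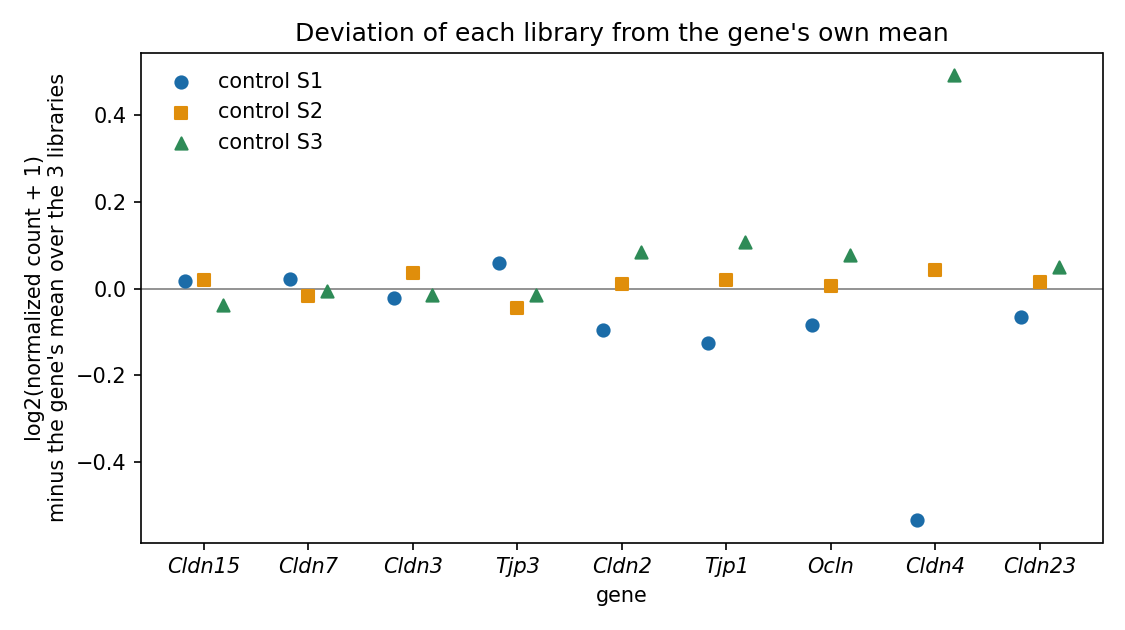
Deviation of each control library (S1 circles, S2 squares, S3 triangles) from the gene's own mean over the 3 libraries, in log2(normalized count + 1). Cldn4 lies at -0.53 in S1 and 0.49 in S3, and every other deviation of the 9 genes is between -0.13 and 0.11; Cldn2, Tjp1, Ocln and Cldn23 have S1 lowest and S3 highest on a smaller scale.

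Several markers of secretory cells had the same order of libraries as Cldn4, and others did not. Of all genes tested, 15.8% were called higher in S3 than in S1 and 13.9% lower, and at the high level of Cldn15 the share called in either direction was 71.3%, so calls among abundant markers are frequent in this test. The 6 goblet cell markers summed to 60993, 66720 and 72998 normalized counts in S1, S2 and S3, and 4 of the 6 were called higher in S3 than in S1. Within that list Clca1, a secreted protein of goblet cells, had 2305, 3248 and 4304, while the mucin Muc2 had 3439, 3089 and 3404 and the transcription factor Spdef had 430, 364 and 475. The 5 Paneth cell markers summed to 112363, 121528 and 136242, and all 5 were called higher in S3 than in S1, but the defensin Defa24 was highest in S2, and Ang4 and Itln1 were lowest there. The 4 enteroendocrine markers summed to 8536, 10990 and 12362. Of these, Chga and Chgb were called higher in S3 than in S1, and Neurod1 and Neurog3 were called in no pair. The 3 tuft cell markers summed to 307, 357 and 388, and 1 of the 3, Dclk1, was called between S1 and S3, higher in S3. Trpm5 had the reverse order, with 112, 111 and 105 normalized counts, and was called in no pair. The general epithelial markers had this order in their sums, 222379, 231485 and 248060, and 7 of the 8 were called higher in S3 than in S1 and 1 lower. Epcam was highest in S2, and Cdx2, the gene called lower, had 7348, 6871 and 7046. The 6 stem cell markers summed to 28314, 25660 and 26119, and 0 were called higher in S3 than in S1 and 2 lower. The 2 were Olfm4, the most abundant of the list, with 17965, 15090 and 16032, and Smoc2, with 5256, 5656 and 4897. Others had other orders: Lgr5 was highest in S2, with 625, 760 and 631, and Axin2 and Rnf43 were highest in S3.

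The 8 enterocyte markers summed to 717466, 713733 and 689332, a sum that holds changes in both directions. Apoa4, an apolipoprotein, had 116007, 87916 and 88987 normalized counts, and the aminopeptidase Anpep had 21897, 28517 and 28116. Between S1 and S2, 7 of the 8 were called, 4 higher in S2 and 3 lower, against 15.1% and 14% of all genes tested. Genes with many reads are called more often. At the level of Cldn15, 73.5% were called between S1 and S2 in either direction. The median CV of the 8 markers was 7.52%. The part of any of these cell types in the level of Cldn4 was not tested.

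Cldn3 and Cldn4 differed in spread although they are neighbours. Both are annotated with a single exon and both are receptors for the enterotoxin of Clostridium perfringens. They lie on opposite strands with 39280 bases between their starts and no annotated gene wholly in between. Genes that reach into this stretch from either side were not counted, and Wbscr25 overlaps Cldn3 on the other strand. The level of Cldn3 divided by that of Cldn4 was 7.17 in S1, 5.00 in S2 and 3.53 in S3, in normalized counts. The 250 bases before each start are shown because of this unequal spread, from RefSeq on GRCm38.p6, 5′ to 3′ on the strand of the gene, with the letters of GGGCGG on either strand in capitals (a GC box, which Sp1-like factors can bind). The window of Cldn4 is chr5:134946935-134947184 (minus strand) and that of Cldn3 is chr5:134985964-134986213 (plus strand).

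Cldn4: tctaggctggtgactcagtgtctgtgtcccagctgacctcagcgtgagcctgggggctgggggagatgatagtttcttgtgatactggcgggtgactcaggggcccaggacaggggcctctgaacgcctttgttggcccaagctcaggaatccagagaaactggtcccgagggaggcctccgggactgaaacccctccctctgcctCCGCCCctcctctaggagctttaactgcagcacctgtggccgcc

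Cldn3: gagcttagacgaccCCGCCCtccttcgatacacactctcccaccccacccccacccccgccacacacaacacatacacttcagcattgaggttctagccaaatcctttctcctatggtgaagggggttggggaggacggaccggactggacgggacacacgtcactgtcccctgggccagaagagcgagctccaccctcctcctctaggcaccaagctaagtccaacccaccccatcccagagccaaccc

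The window of Cldn4 has 62.0% G and C and that of Cldn3 60.8%. GGGCGG was found once in each, on the strand opposite to the gene, beginning 44 bases before the start in Cldn4 and 236 bases before it in Cldn3, and 32.7% of all 32851 windows of this length hold it. TATAAA (in 12.4% of all windows), CCAAT (33.8%) and the C/EBP-type sequence TTGCNNAA (9.56%) were searched on both strands as well, and these letters are in neither window. Of the 9 genes, 8 had a window, and TATAAA was found in that of Cldn2 alone, 35 bases before its start. A match describes letters in a window and is not a binding site.

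Other genes of the tight junction were present alongside these 9. Of 55 further genes listed for the pathway, 46 have a row and 30 passed the filter, with a median CV of 4.84%. Between S1 and S3, 12 of these 30 were called higher in S3 and 2 lower, against 15.8% and 13.9% of all genes tested. Between S1 and S2 there were 5 in each direction, against 15.1% higher in S2 and 14% lower, which is near the share over all genes. Between S2 and S3, 4 were called higher in S3 and 0 lower, against 8.71% and 8.08%. Genes with many reads are called more often in this test, and the shares over all genes are not matched to the level of these 30. Among the genes with most reads, the coxsackievirus and adenovirus receptor Cxadr had 5651, 6513 and 6701 normalized counts in S1, S2 and S3, and F11r, which encodes the junctional adhesion molecule JAM-A, had 5580, 6237 and 6446. Both were lowest in S1. The junction plaque protein cingulin (Cgn) had 6458, 6118 and 6351. Lsr, the tricellular junction protein angulin-1, had 8409, 7635 and 7964 normalized counts, and the transcription factor Ybx3, a partner of ZO-1, had 9299, 8956 and 8747. Sympk, the gene of symplekin, a protein of the junction plaque and of mRNA processing, had 5178, 4726 and 5082, and the myosin light chain kinase gene Mylk had 3382, 3508 and 3616. A further tricellular junction gene, Ildr1 (angulin-2), had the widest spread of the 30 that passed the filter, with 39 reads for S1, 44 for S2 and 119 for S3 and a CV of 74.8%; it was called between S1 and S3 (adjusted p = 8.4e-13) and between S2 and S3 (adjusted p = 8.8e-09).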

How the data were processed

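The authors mapped paired-end reads of polyadenylated RNA with Bowtie 2 (2.2.9), quantified them per gene with RSEM (1.2.31) and used DESeq2 (1.14.1), per the labels' processing notes and the paper. The notes name mm9, and the annotation release is not given in the sources used here. The deposited values are a signal that is never negative, named normalized counts. In the 3 control columns 100% of values were whole multiples (within 0.01) of the value of 1 read. That value was 0.946, 1.07 and 1.15 in S1, S2 and S3, and reads were recovered by division. RSEM estimates counts, so these whole numbers may be rounded estimates, which could not be checked here. A further 3 columns match no sample label and were not used, and the planned comparison of genotypes was not run. Of 21256 rows, 1 repeats an identifier and was dropped. Symbols (21213 identifiers), lengths and gene coordinates came from GENCODE M21 (GRCm38), and promoter windows from RefSeq GRCm38.p6.

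Libraries were compared by a chi-square test of recovered reads against the split that their factors give, for genes averaging 10 normalized counts or more, and the calculation was tested on simulated data. It covers counting error only. Named genes were the 9 members and Cebpa, and of each junction list the 8 genes with the highest mean, of which 1 is not reported here. Cldn1, Cldn8, Cldn12, Cldn18, Cldn20, Ildr1, Jup and the markers named were picked after their values were seen. Genes of like pattern were to be named only with at least 6 libraries. The members and lists were chosen with earlier results of these data known. Alternatives were other scalings, pseudocounts, filters and lengths, and leaving out each library. Calculations ran in Python (3.11.15) with scipy (1.17.1), numpy (2.4.6) and pandas (2.3.3).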

Additional observations from a re-analysis of the deposited data

How the results depend on the processing

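The planned comparisons of C/EBPα KO with control, and their alternatives, were not run because no column carries the number of a KO library. With 3 libraries, leaving out 1 moves a coefficient of variation (CV) or a range by construction. Without 1 library, the CV ran from 21.9% to 48.3% for Cldn4, 3.66% to 8.76% for Cldn2, 0.23% to 2.79% for Cldn3, 0.60% to 1.88% for Cldn7, 0.055% to 2.76% for Cldn15, 1.67% to 5.63% for Cldn23, 4.27% to 11.4% for Tjp1, 1.45% to 4.99% for Tjp3 and 3.45% to 7.81% for Ocln. The lowest CV of Cldn4 thus exceeded the highest of each other member. The log2 range ran from 0.45 to 1.03 for Cldn4 and its median over the 9 genes from 0.056 to 0.11. The mean level of Cldn4 ran from 1946 to 2757 normalized counts. Bringing libraries to a common total or upper quartile, using pseudocounts of 0.1 or 5, or testing genes averaging 1 normalized count or more moved no CV, range or count of called members by over 1.5 times. Between S2 and S3, a common upper quartile gave 5 called members in place of 4. Lengths of the longest transcripts, an alternative chosen after seeing the data, moved the TPM of 7 of the 9 genes by more than the SD between libraries, and with them the order of Cldn3, Cldn15 and Cldn7 and that of Cldn2 and Tjp3. Depth limits the low genes, such as Cldn18 at 2 reads in S1.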

Other observations

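Adherens junctions and desmosomes, the neighbouring cell contacts, were well represented in the control organoids. Of 23 listed genes, 22 have a row and 21 passed the filter, with a median CV of 4.72%. In the chi-square test of reads between libraries, 15 of the 21 were called higher in S3 than in S1 and 0 lower, against 15.8% and 13.9% of all genes tested. Between S2 and S3, 10 were called higher in S3 and 0 lower, against 8.71% and 8.08%, and between S1 and S2, 9 were called higher in S2 and 3 lower, against 15.1% and 14%. Genes with many reads, as most of these are, are called more often in this test. Epcam, an epithelial adhesion molecule, had 31585, 33796 and 33369 normalized counts in S1, S2 and S3. E-cadherin (Cdh1) had 28741, 29268 and 31152, and the intestinal cadherin Cdh17 had 37956, 40125 and 42421. Of the catenins that link cadherins to the cytoskeleton, 3 were also highest in S3. Ctnnb1 had 26024, 26021 and 27154 normalized counts, Ctnna1 15574, 16677 and 17718, and Ctnnd1 13149, 13933 and 15156. Plakoglobin (Jup), a catenin of both kinds of junction, had 8661, 8132 and 8654. Of the desmosome genes, Dsp had 10647, 11667 and 11861, and Dsg2 had 8322, 9465 and 10279.

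Over all genes tested, 35.8% had their lowest value in S1 and 33.1% their highest in S3. Among the 9 tight junction genes 6 were lowest in S1 and 5 highest in S3, and among the 21 adherens junction and desmosome genes 14 were lowest in S1 and 15 highest in S3. S1 stands apart from the other libraries in Xist (18.9 normalized counts, against 15423 in S2 and 14769 in S3), and more genes were called between S1 and S2 (29.1%) or S3 (29.7%) than between S2 and S3 (16.8%). The part of this difference in the counts was not tested.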
